A study of Mus musculus with 12 samples.

Results

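The nuclear-encoded subunits of the respiratory chain were taken as the genes of the deposited count table whose symbols name a subunit of complex I (Nduf), complex II (Sdh), complex III (Uqcr and Cyc1), complex IV (Cox) or the ATP synthase, also called complex V (Atp5), with a level of at least 1 CPM (reads of a gene per 1e6 reads counted) in at least 4 of the 12 samples. Of 84 such symbols, 81 passed, among 17716 genes that passed in the whole table of 55376. These were 35 genes of complex I, 4 of complex II, 9 of complex III, 16 of complex IV and 17 of complex V. Ndufa4 was counted with complex IV, where its protein is found, and 1 of the complex IV symbols, Cox6c2, is annotated as a processed pseudogene, so its reads may not be fully separated from those of Cox6c, which was not tested. The 3 symbols that did not pass were Cox4i2, Cox7b2 and Cox8c. Cox8c had 0 counts in every sample, Cox7b2 0 to 215 and Cox4i2 8 to 342.

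The respiratory chain lies in the inner mitochondrial membrane. Complexes I and II pass electrons from NADH and succinate to ubiquinone, complex III hands them to cytochrome c and complex IV to oxygen, and the proton gradient that complexes I, III and IV build drives the ATP synthase. A small set of subunits is encoded by mitochondrial DNA, and all others are encoded in the nucleus and imported, so that each complex except complex II draws on both genomes. Oligodendrocytes have a high demand for ATP and acetyl groups while they build myelin.

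RNA-Seq was measured in oligodendrocytes sorted by FACS from brains of C57BL/6 mice at postnatal day 40 as live cells with the surface lipid O1 and without the leukocyte marker CD45. There were 3 genotypes with 4 samples each, and each sample pooled 2 brains. WT samples carried the replicate numbers 1, 3, 5 and 6. Cnp-Cre Jab1fl/fl mice, here also Jab1 mutants, have both copies of Jab1 (symbol Cops5, a subunit of the COP9 signalosome) flanked by loxP sites and a Cre under the control of Cnp, which is active in the oligodendrocyte lineage, and their samples were numbered 1 to 4. Cnp-Cre Jab1fl/fl p21CIP1-/- mice, the double mutants, carry the same alleles and in addition lack p21CIP1 (Cdkn1a, a cyclin-dependent kinase inhibitor) in every cell, through a null allele that the study's methods trace to a backcrossed 129S6/SvEvTac strain, and their samples were numbered 1, 2, 3 and 5. A p21CIP1-/- group without Cre was not analysed here.

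Total counts were 61485556 to 153495112 per sample. At this depth counting error, taken over a library as a whole, was small beside the differences among samples of a genotype. The p-values set the difference between genotypes against that spread. Cops5 was at 46.5 to 134 CPM in WT, 45.1 to 89.3 in Jab1 mutants and 44.4 to 90.7 in double mutants, with overlap between all groups, and Cdkn1a was at 16 to 85.6, 380 to 639 and 64.9 to 104 CPM. Counts per gene do not separate the deleted exons from the others, so neither gene checks the labels. The summed level of 12 mature oligodendrocyte markers was 47740 to 112600 CPM in WT, 9267 to 36370 in Jab1 mutants and 17400 to 55070 in double mutants, and 8 of the 12 were called lower in Jab1 mutants. Markers of some other cell types moved with genotype as well. The 13 microglia markers summed to 96.8 to 298 CPM in WT, 1116 to 3009 in Jab1 mutants and 437 to 20600 in double mutants, and all 13 were called higher in Jab1 mutants, as were 5 of 7 endothelial, 3 of 6 mural and 2 of 7 choroid plexus markers. In Jab1 mutants 1 of 8 markers of oligodendrocyte precursors was called higher, and no astrocyte, neuron or erythroid marker was called. Over all genes 5.19% were called higher and 2.46% lower in Jab1 mutants. In double mutants against WT no marker of these lists was called, where 0.175% of all genes were called higher and 0.0169% lower. The median log2 fold change of the microglia markers was 5.62 there, against 4.14 in Jab1 mutants. For the mature oligodendrocyte markers it was -1.53, against -2.30. The 20600 CPM of microglia markers belonged to double mutant replicate 3, and the other double mutants were at 437 to 2266. No marker of these lists was at 0 in every sample of a group. Fewer cells of a type and less RNA per cell cannot be told apart in such samples, and the part of cell composition in the results on subunit genes was not tested.

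In WT oligodendrocytes the levels of the subunit genes were unequal. Compared per kilobase of exon, the median WT level was 123 CPM per kb for the 35 genes of complex I, 115 for the 4 of complex II, 240 for the 9 of complex III, 297 for 11 widely expressed genes of complex IV and 172 for the 15 of complex V whose length was available. The highest level within each complex was that of Ndufa3, an accessory subunit of complex I (367 ± 145 CPM per kb, SD, n = 4), Sdhb, the iron-sulfur subunit of complex II (199 ± 61.3), Uqcr11 of complex III (561 ± 223), Cox6a1 of complex IV (748 ± 299) and Atp5b, the catalytic β subunit of the ATP synthase (502 ± 90.0). The SDs of Uqcr11, Cox6a1 and Atp5b overlapped. Within each complex the SDs of the highest gene and the next also overlapped, as for Cox6a1 and Cox4i1 (676 ± 282). These SDs are across libraries, however, and the genes share the libraries. Per kilobase, Cox6a1 was above Uqcr11 in each WT library, but below Atp5b in WT replicate 3. The highest genes of complexes III, IV and V were above the next of their complex in each WT library. Those of complexes I and II were not in WT replicate 3. The order was not tested. The lowest levels were those of Cox6c2 and of Cox6a2, Cox7a1 and Cox8b, tissue forms of complex IV described further on (0.282 to 6.62 CPM per kb). Ndufb2 (7.19), a further tissue form, Cox6b2 (9.51), and Sdhc (18.8) followed. Not divided by length, Ndufb2, with 4375 bases of exon, was at 31.5 CPM and Cox6b2 at 7.05. The 3 genes for the c-ring of the ATP synthase encode the same mature protein. Their level was 361 ± 137 CPM per kb for Atp5g3, 45.8 ± 17.2 for Atp5g2 and 30.1 ± 10.7 for Atp5g1. Not divided by length, the means were 261 CPM for Atp5g3, 148 for Atp5g1 and 33.5 for Atp5g2. The order of Atp5g1 and Atp5g2 thus depends on the annotated exon length, 4912 bases for Atp5g1 and 731 for Atp5g2.

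The samples of a genotype differed widely in these genes. Reads on the 81 genes made up 1.81, 0.764, 1.34 and 1.5% of the counts in WT replicates 1, 3, 5 and 6, 1.47, 1.95, 1.76 and 2.06% in Jab1 mutants 1 to 4, and 1.78, 1.23, 2.07 and 2.42% in double mutants 1, 2, 3 and 5. The groups overlapped, and WT replicate 3, the most deeply sequenced library, and double mutant replicate 2 were low in their groups. Averaged as log2(CPM + 1) over the 81 genes, the level was 6.80 ± 0.63 in WT, 7.31 ± 0.17 in Jab1 mutants and 7.37 ± 0.51 in double mutants (SD, n = 4 each). The difference between Jab1 mutants and WT was 0.51 and that between double mutants and WT 0.58, each smaller than the SD of the WT samples. The sample means of Jab1 mutants and WT did not overlap for complex IV (6.44 to 7.07 against 4.78 to 6.26), but over its 11 widely expressed genes alone they did (8.02 to 8.49 against 6.42 to 8.27), while those over its 4 tissue forms did not (3.13 to 4.55 against 0.95 to 2.03). Cox6a2, Cox8b and Cox6c2 passed the filter only with mutant samples, since not all WT samples reached 1 CPM. The filter thus favours a gap in the means of complex IV and of its tissue forms. WT replicate 3 had the lowest level of all 12 samples for 69 of the 81 genes. The other 12 genes included Sdha, Ndufs1, Ndufv1, Uqcrc1, Cyc1, Atp5a1 and Atp5b, which encode large catalytic or core proteins, and for complex II as a whole that library was at 7.03 against 7.18 to 7.60 in the other WT samples.

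**Figure D1:**
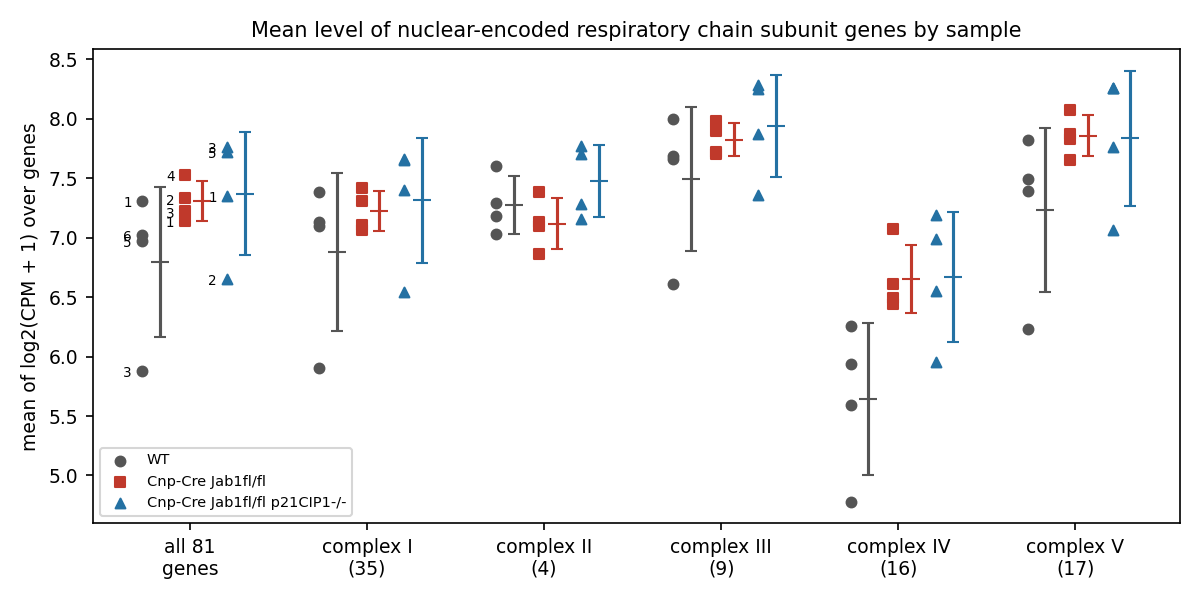
Mean of log2(CPM + 1) over all 81 subunit genes and over those of each complex (x axis), for each of the 12 samples (points, with replicate numbers for the first set) and as mean and SD of the 4 samples of a genotype (bars). WT replicate 3 (5.88) and double mutant replicate 2 (6.65) are the lowest of their genotype over all 81 genes, and for complex II all 12 samples lie between 6.86 and 7.77.

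The first comparison, of Jab1 mutants with WT, asked whether these mRNAs differ when oligodendrocytes lose Jab1. Few were called. At an adjusted p below 0.05 (edgeR's quasi-likelihood test, adjusted over all 17716 genes), only Cox6a2 was called higher, 1 of 81 (1.23%) against 5.19% of all genes tested. Cox6a2 was under 1 CPM in all 4 WT samples and passed the filter only through mutant samples, so it was a member because it was higher there, and its call supports nothing about the set. Cox8b reached 1 CPM in 3 of the 4 WT samples and Cox6c2 in 1, so these also passed only with mutant samples. No subunit gene was called lower by edgeR, against 2.46% of all genes. Limma-voom with quality weights gave the same counts. DESeq2 called 6 genes higher (Cox6a2, Cox6b2, Cox7a1, Cox8b, Ndufa1 and Atp5md), which was 7.41% against 9.52% of all genes, and 1 lower (Sdha), 1.23% against 5.66%. At an unadjusted p below 0.05, 8 genes were higher (9.88%, against 13.2% of all genes) and 2 lower (2.47%, against 9.3%). All 4 mutant samples lay above all 4 WT samples for 9 genes (11.1%, against 9.9% of all genes), and below them for Sdha and Ndufs1 (2.47%, against 7.24%). Each of these shares was under that over all genes, except the 11.1% of higher genes without overlap, which was near it.

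The signs were less even than the calls. The log2 fold change was above 0 for 68 of the 81 genes, with a median of 0.43 where the median of all genes was 0.02. All 16 genes of complex IV and all 17 of complex V were above 0, with medians of 0.62 and 0.46. The median was 0.46 for complex III (5 of 9 above 0), 0.29 for complex I (28 of 35) and -0.07 for complex II (2 of 4). With limma-voom the median was 0.25, with 58 above 0. Without WT replicate 3, the median over the 81 genes dropped to 0.16 with 52 above 0, and the medians of complexes I to V were 0.05, -0.16, 0.20, 0.33 and 0.21. The median standard error (SE) of a single gene was 0.36, and for 25 of the 81 genes the 95% interval of the difference stayed below a doubling (a log2 fold change of 1), while for 78 it stayed above a fall of the same size.

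**Figure D2:**
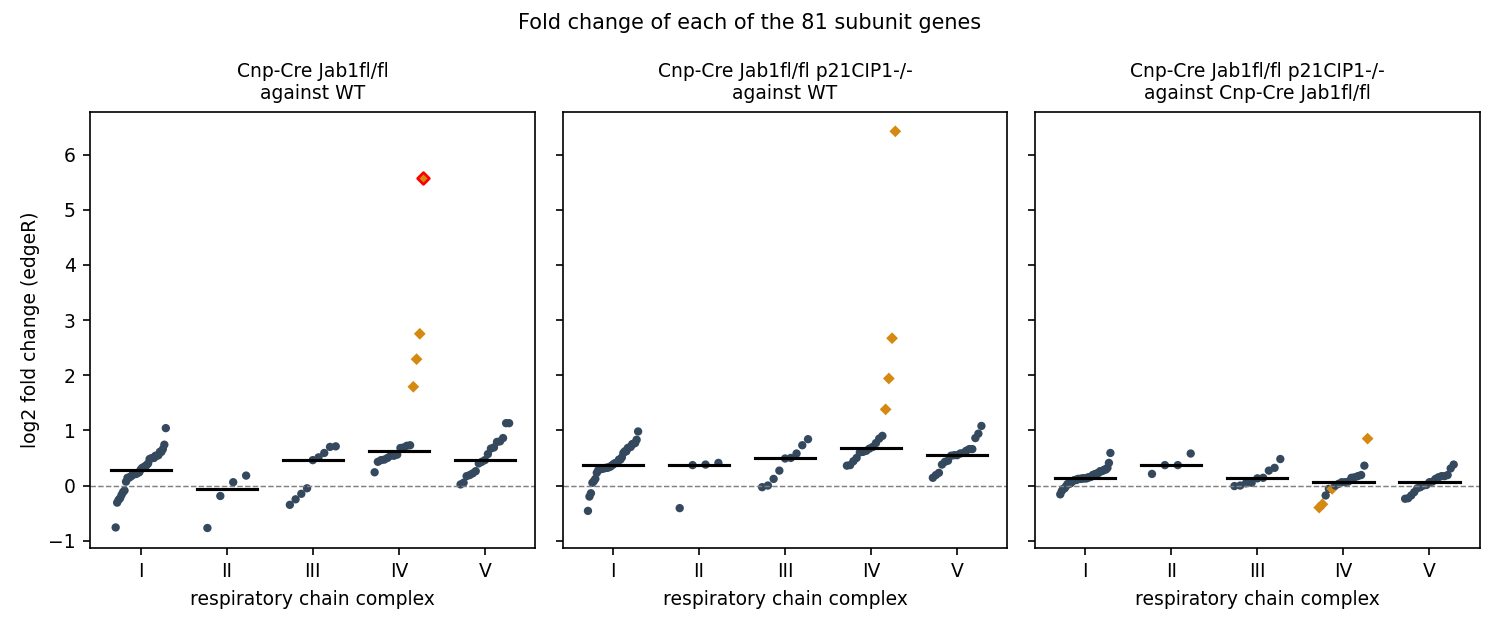
Log2 fold change (y axis, edgeR) of each of the 81 subunit genes, sorted within its complex (x axis), in the 3 comparisons. Round points are single genes, diamonds the 4 tissue isoforms of complex IV, the red outline marks the gene with an adjusted p below 0.05 (Cox6a2, 5.58), and black lines are medians, which run from -0.07 to 0.62 in the comparison of Jab1 mutants with WT.

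Of the 13 genes with a log2 fold change below 0, most encode catalytic or core subunits and 3 do not (Ndufa9, Ndufa10 and Sdhc), and none passed the test. Sdha, the flavoprotein of complex II that oxidizes succinate, was at 304, 435, 525 and 326 CPM in WT and at 250, 265, 198 and 221 CPM in Jab1 mutants. The groups did not overlap, and the log2 fold change was -0.77 (SE 0.29, edgeR adjusted p = 0.135). Ndufs1, a subunit of complex I and part of its electron input module, was at 106, 111, 143 and 111 CPM in WT and at 93.0, 57.6, 81 and 45.5 CPM in Jab1 mutants, again without overlap (log2 fold change -0.76, SE 0.30, edgeR adjusted p = 0.149). Ndufs1 shares 248 bases of exon with a noncoding gene on the other strand, Ino80dos. Leaving out WT replicate 3 left the fold changes of both genes close to these values, at -0.74 and -0.81. Uqcrc1, a core protein of complex III, was next by p among the genes with lower values, at 343 to 498 CPM in WT and 277 to 380 CPM in Jab1 mutants (log2 fold change -0.35, edgeR adjusted p = 0.496), and here the groups overlapped.

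Other core subunits showed differences within the spread of the samples. Ndufv1, which binds NADH in complex I, differed by -0.26 (SE 0.26). Over the 7 core genes of complex I in the set the median was -0.12, with 5 below 0. Over the 28 accessory genes it was 0.36, with 26 above 0. Without WT replicate 3 these medians were -0.34 (6 below 0) and 0.09 (18 above 0). The longest transcripts of the core genes had 983 to 2661 bases, where the median of the set was 861. Fold changes fell with length across the set, as described further on, and the part of length in this split was not tested. Sdhb differed by 0.06, the Rieske protein gene Uqcrfs1 by -0.05, the cytochrome c1 gene Cyc1 by -0.15 and the α subunit gene of the ATP synthase, Atp5a1, by 0.02 (SE 0.25 to 0.32). Atp5b was at 1034, 738, 1144 and 935 CPM in WT and at 1143, 1245, 735 and 853 CPM in Jab1 mutants, which overlapped fully. Its log2 fold change was 0.05 with a 95% interval from -0.62 to 0.71, so a doubling lay outside the interval. The interval was wider for Cox4i1, which encodes a subunit that contacts the catalytic core of complex IV, at 0.54 (-0.29 to 1.37), with 724, 213, 562 and 569 CPM in WT and 632, 765, 644 and 968 CPM in Jab1 mutants. Cox5a, another early-assembling subunit, differed by 0.50 (SE 0.37).

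**Figure D3:**
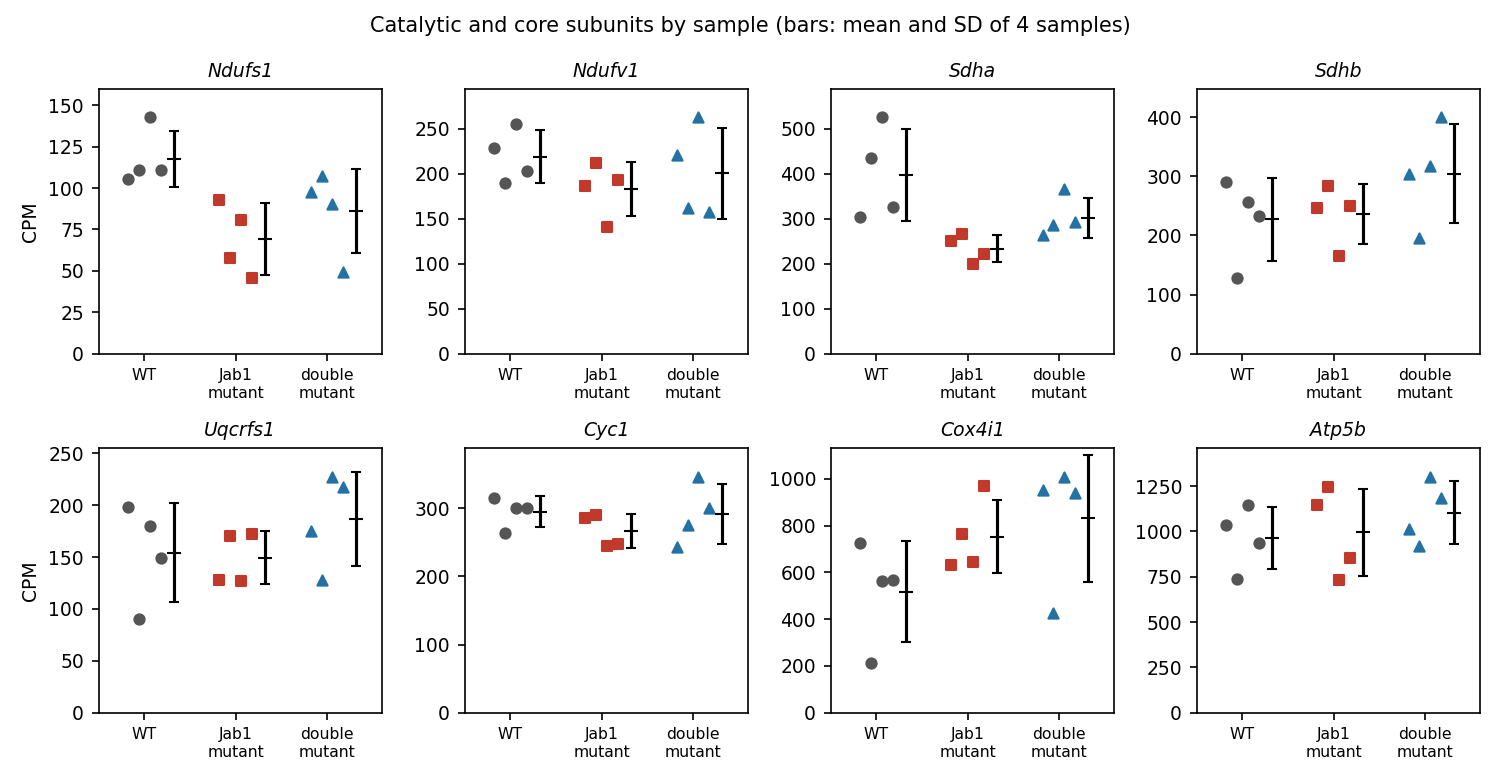
Level in CPM (y axis, linear from 0) of 8 genes for catalytic or core subunits in each sample of WT, Jab1 mutants and double mutants (points, in order of replicate number), with mean and SD of the 4 samples. Of these 8 genes only Sdha and Ndufs1 have all Jab1 mutant samples below the WT samples, and WT replicate 3 is the lowest WT sample for the other 6.

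Among genes with higher values, those outside complex IV that did not overlap between Jab1 mutants and WT were Ndufa1, Uqcrb, Atp5e, Atp5j and Atp5md, named here after their values were seen. They encode small accessory subunits, except that Atp5e is the ε subunit of the F1 part. Their log2 fold changes were 0.71 to 1.13 with adjusted p-values of 0.115 to 0.305 (edgeR). Atp5j shares 182 bases of exon with Gabpa on the other strand. Of the 81 genes, 22 share exon bases with another annotated gene, and since it is not stated whether counting used the strand, their counts are less certain.

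The gene that passed the test, Cox6a2, belongs to complex IV, in which several subunits have a form typical of heart and skeletal muscle beside a widely expressed one. The forms that passed the filter were Cox6a2, Cox7a1 and Cox8b, and Cox6b2, whose protein is known from testis. Cox6a2 (chr7:128205435-128206387) was at 0.527, 0.0519, 0.189 and 0 CPM in WT, at 11.2, 3.86, 3.78 and 18.1 CPM in Jab1 mutants and at 26.7, 9.50, 22.7 and 7.74 CPM in double mutants. These values came from 58, 8, 19 and 0 counts in WT against 256 to 1345 in Jab1 mutants and 737 to 2496 in double mutants, so each mutant sample was above each WT sample. The log2 fold change was 5.58 in Jab1 mutants (SE 1.36, edgeR adjusted p = 0.0309), and its size depends on the handling of near-zero counts in WT. The call did not survive the removal of WT replicate 3 (adjusted p = 0.0859), WT replicate 5 (0.0842), Jab1 mutant replicate 1 (0.0606) or Jab1 mutant replicate 4 (0.0792), although the direction stayed. Cox6a2 lies within the body of Itgad on the other strand, with 70 bases of shared exon. Itgad had 0 counts in Jab1 mutants 1, 3 and 4 and 431 in Jab1 mutant 2, against 255 to 1081 in WT and 222 to 2252 in double mutants, so Itgad was not higher in the Jab1 mutants. The 6 mural cell markers, of the muscle-like cells of vessels, summed to 253 to 455 CPM in WT, 947 to 1656 in Jab1 mutants and 281 to 1627 in double mutants. The 281 CPM belonged to double mutant replicate 1, which had the highest Cox6a2 level. The 7 choroid plexus markers summed to 292 to 4049 CPM in WT, 6438 to 24330 in Jab1 mutants and 5371 to 23710 in double mutants. The part of these or other cell types in the levels of the tissue forms was not tested.

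The other 3 tissue forms had higher means in mutants without passing the test. Cox7a1 was at 4.19, 1.52, 1.69 and 2.79 CPM in WT and at 4.49, 7.40, 23.3 and 14.6 CPM in Jab1 mutants (log2 fold change 2.29, SE 0.68, edgeR adjusted p = 0.0647). Cox6b2 was at 9.24, 7.10, 3.33 and 8.52 CPM in WT and at 9.61, 14.2, 27.5 and 46.1 CPM in Jab1 mutants (1.79, SE 0.56, edgeR adjusted p = 0.0776). Cox8b was at 2.44, 1.17, 0 and 5.94 CPM in WT and at 8.96, 8.51, 26 and 20.5 CPM in Jab1 mutants (2.75, SE 1.21, edgeR adjusted p = 0.206). Cox8b passed the filter only with mutant samples, so its difference is given as a description. In none of the 3 genes did Jab1 mutants overlap with WT. The lowest mutant sample of Cox7a1 and of Cox6b2 was close to the highest WT sample, however. The 11 widely expressed nuclear genes of complex IV differed less, with log2 fold changes of 0.24 to 0.72, and all 11 overlapped between the groups.

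A ratio of a tissue form to its partner within a library does not depend on library scaling. On the log2 scale, with 0.1 CPM added, Cox6a2 against Cox6a1 was at -10.74 ± 1.03 in WT, -6.28 ± 0.92 in Jab1 mutants and -5.45 ± 0.80 in double mutants (SD, n = 4). The difference from WT was 4.46 and 5.30 and is given as a description, since Cox6a2 passed the filter only through the mutants. Other pairs were compared by a two-sided exact permutation test over 70 relabelings, where 4 against 4 samples allow no p below 0.0286. Adjusted over 18 tests of 6 pairs in 3 comparisons, those of Cox6a2 and Cox8b included, no p was below 0.257. Cox7a1 against Cox7a2 was higher by 1.33 in Jab1 mutants (exact permutation test, p = 0.0857), with overlap. Cox6b2 against Cox6b1 was higher by 0.91 (exact permutation test, p = 0.229), also with overlap. Cox8b against Cox8a was higher by 2.78 with overlap, given as a description since Cox8b passed the filter only with mutant samples. For the c-ring genes, Atp5g1 against Atp5g3 differed by 0.16 (exact permutation test, p = 0.286) and Atp5g2 against Atp5g3 by -0.31 (p = 0.2). Per kilobase of exon, Cox6a2 made up 0 to 0.0765% of the sum of Cox6a2 and Cox6a1 in WT, 0.534 to 2% in Jab1 mutants and 0.846 to 2.90% in double mutants, so Cox6a1 provided nearly all of this subunit's mRNA in each sample.

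**Figure D4:**
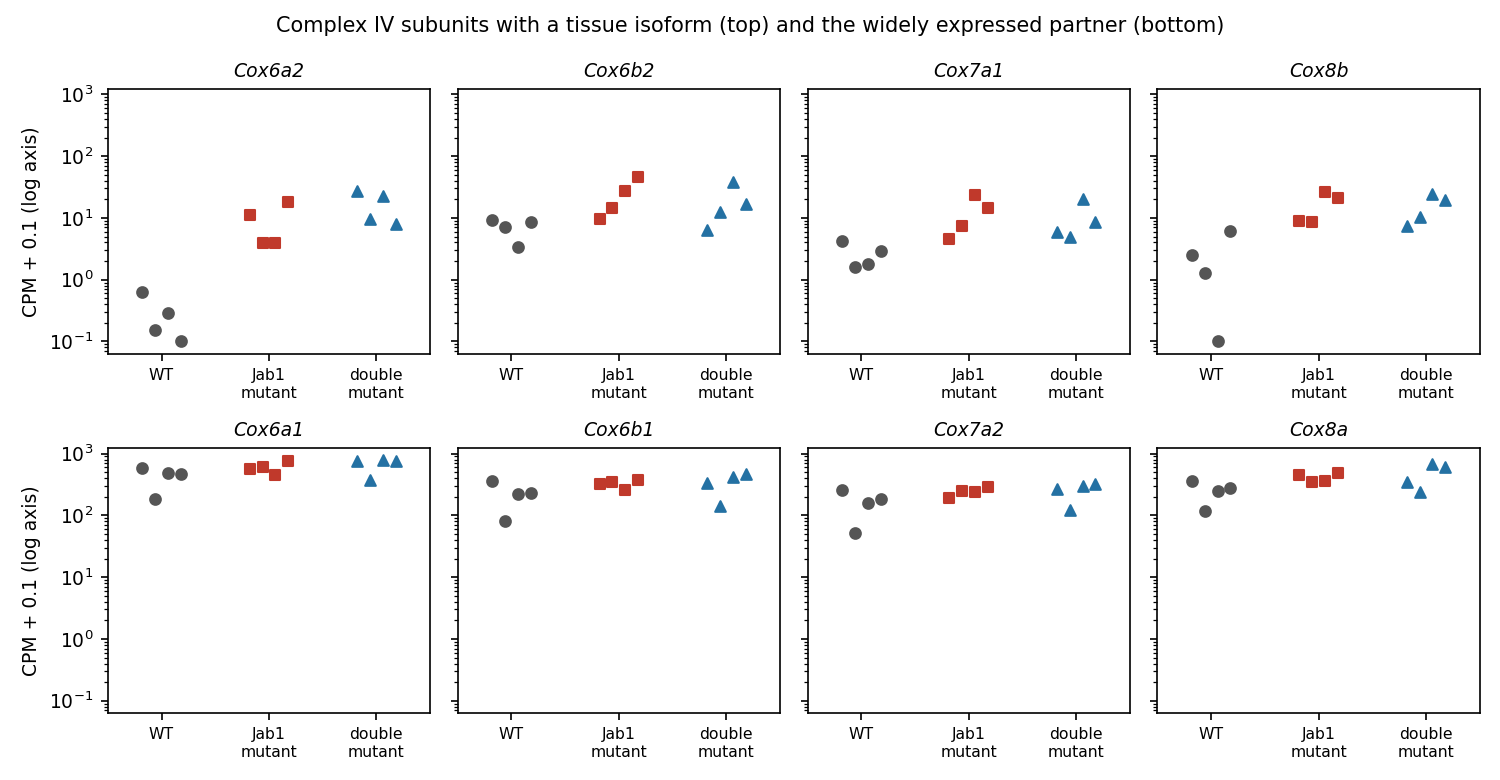
Level (y axis, CPM + 0.1 on a log axis) in each sample of the 4 tissue forms of complex IV subunits (upper row) and of the widely expressed partner (lower row), in WT (circles), Jab1 mutants (squares) and double mutants (triangles). Cox6a2 is at 0.527 CPM or less in WT and at 3.78 CPM or more in all 8 mutant samples, while Cox6a1 is at 183 to 779 CPM throughout.

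Promoter windows from RefSeq (GRCm38.p6, 250 bases before to 50 after the start of a gene) were found for 65 of the 81 genes and not for the others, among them Cox6a2, Cox4i1, Cyc1, Ndufs1 and Atp5a1. They were searched on both strands for the core letters of 3 factors known for nuclear genes of mitochondrial proteins, namely the palindromic NRF1 core with 1 free base in it, CCGGAAG for the ETS factor GABP and AANATGGCG for YY1. NRF1 letters stood in 16 of the 65 windows (24.6%, against 4.78% of 27025 windows of all genes), ETS letters in 16 (24.6%, against 9.12%) and YY1 letters in 8 (12.3%, against 2.51%). One or more of them stood in 35 windows (53.8%, against 14.7%). The windows were not matched for base composition. The 250 bases before the start are given for Cox6a1, the partner of the called gene and the one complex IV gene with NRF1 and ETS letters together, and for a pair of tissue form and partner in which no match was found, Cox7a1 and Cox7a2. Matches are in capitals.
Cox6a1 (chr5:115348959-115349208, - strand, GRCm38.p6): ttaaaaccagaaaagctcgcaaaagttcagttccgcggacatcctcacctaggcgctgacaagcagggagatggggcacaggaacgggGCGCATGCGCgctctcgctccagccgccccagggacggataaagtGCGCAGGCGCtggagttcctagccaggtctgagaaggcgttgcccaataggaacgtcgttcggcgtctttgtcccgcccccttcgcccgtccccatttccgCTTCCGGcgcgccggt
Cox7a1 (chr7:30183921-30184170, + strand, GRCm38.p6): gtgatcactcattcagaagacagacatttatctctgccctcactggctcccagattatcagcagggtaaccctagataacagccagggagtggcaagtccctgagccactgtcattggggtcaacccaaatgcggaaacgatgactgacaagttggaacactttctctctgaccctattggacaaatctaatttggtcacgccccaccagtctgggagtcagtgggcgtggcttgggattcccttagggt
Cox7a2 (chr9:79759854-79760103, - strand, GRCm38.p6): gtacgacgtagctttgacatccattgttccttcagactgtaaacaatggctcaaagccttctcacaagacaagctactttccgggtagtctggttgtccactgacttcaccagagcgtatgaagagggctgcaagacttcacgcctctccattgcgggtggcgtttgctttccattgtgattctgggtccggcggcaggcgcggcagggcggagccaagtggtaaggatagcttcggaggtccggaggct
The window of Cox6a1 holds 2 NRF1 matches, which begin 162 and 117 bases before the start, and 1 ETS match that begins 16 bases before it. Sdha and Ndufb4 had 3 NRF1 matches each, more than the other genes. The 3 tissue forms with a window, Cox6b2, Cox7a1 and Cox8b, had 0 matches. A match of letters is no measurement of binding.

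The subunit genes share short transcripts, a property the symbols did not select. For 79 genes matched to the annotation the longest transcript had a median of 861 bases (231 to 4715), against 3191 for all protein-coding genes tested, and a median of 4 exons. Within the set, shorter genes had higher fold changes between Jab1 mutants and WT. Across the 79 genes, which are not independent and share the same 8 libraries, Pearson's r of the log2 fold change with log10 of the length was -0.42 and Spearman's rho -0.62. Protein-coding genes in general also had higher values where they were shorter, with a median log2 fold change of 0.72 for 308 genes under 750 bases and -0.10 for 7422 genes of 3000 bases and over. The 34 subunit genes under 750 bases had a median of 0.53 and the 24 from 750 to 1500 bases 0.25, against 0.72 and 0.26 for all protein-coding genes of those lengths. The 17 from 1500 to 3000 bases had a median of 0.02, against -0.03, and the 3 of 3000 bases and over one of 0.48, against -0.10. The median deviation of WT replicate 3 from the 12-sample mean on the log2 scale was -1.56 for subunit genes under 750 bases, against -1.29 for all protein-coding genes of that length. From 750 to 1500 bases it was -1.44 against -0.72, from 1500 to 3000 bases -0.52 against -0.03, and from 3000 bases -1.01 against 0.41, so the subunit genes were lower in that library than others of like length in each range. The 85 genes for cytosolic ribosomal proteins, which are also short, had a median log2 fold change of 1.02 with all 85 above 0. With an offset for transcript length in each library, the median over the 79 subunit genes was 0.16 with 54 above 0, Cox6a2 remained the called gene (log2 fold change 5.32, SE 1.3, edgeR adjusted p = 0.0332), and Sdha and Ndufs1 were at -0.67 and -0.70.

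**Figure D5:**
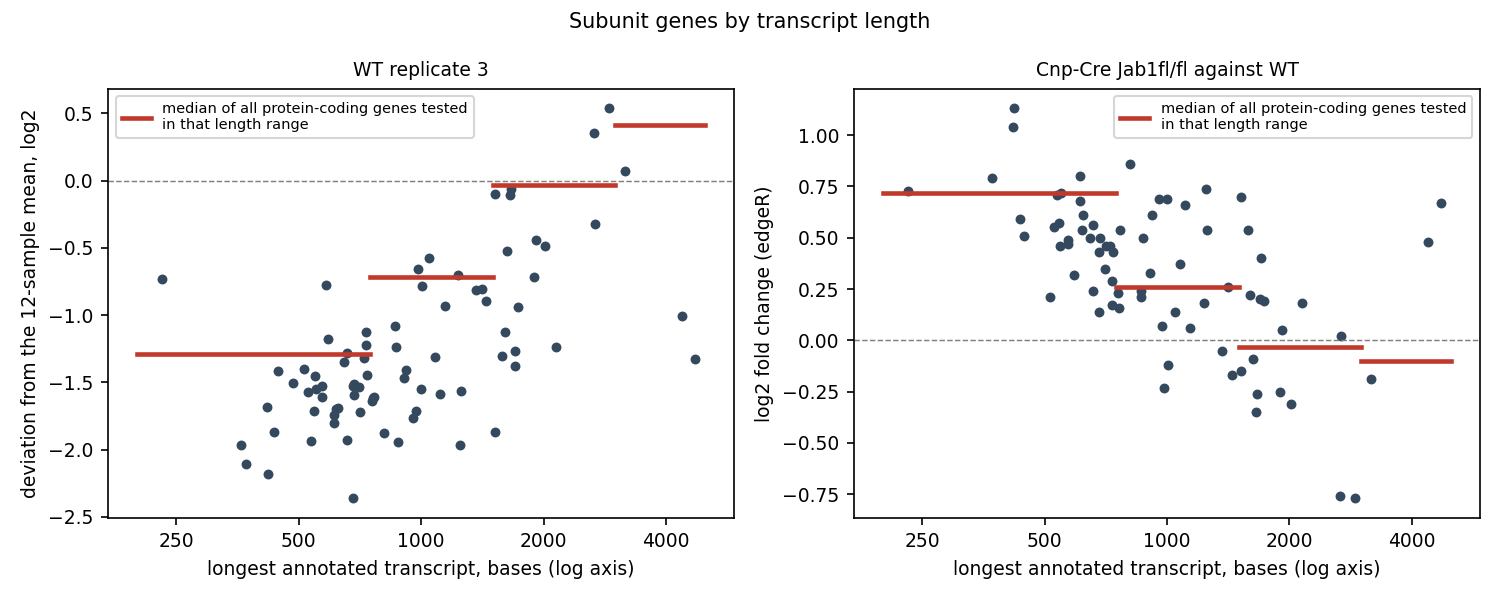
Subunit genes (points) by the length of their longest annotated transcript (x axis, log scale), with the deviation of WT replicate 3 from the mean of the 12 samples (left, log2(CPM + 1)) and the log2 fold change of Jab1 mutants against WT without the 4 tissue forms (right). Red lines are medians of all protein-coding genes tested in a length range, from -1.29 to 0.41 on the left and from 0.72 to -0.10 on the right. Most points under 1500 bases lie below 0 on the left and above 0 on the right.

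The second comparison, of double mutants with WT, asked whether the mRNAs differ when p21CIP1 is missing as well. It shares the WT samples with the first. No subunit gene was called higher (0.175% of all genes were) or lower (0.0169%) by edgeR. Limma-voom called 0, DESeq2 called Cox6a2 higher (1.23% against 3.74% of all genes), and one edgeR fit over all 12 samples called it too. At an unadjusted p below 0.05, 4 genes were higher (4.94%, against 7.82% of all genes) and 0 lower (against 4.57%). The groups did not overlap for 3 genes with higher levels, Cox6a2, Cox7a1 and Cox8b (3.70%, against 4.52% of all genes), and for 0 with lower levels (against 3.58%). The log2 fold change was above 0 for 76 of 81 genes, and their median was 0.49, where that of all genes was 0. Limma-voom gave 0.25 with 70 above 0. Leaving out WT replicate 3 also gave 0.25, and leaving out double mutant replicate 2 gave 0.70. With the offset for transcript length the median was 0.32, with 72 of 79 above 0. Shorter genes were higher here as well, with Spearman's rho of -0.60 across the 79 genes. The median was 0.60 for the 34 subunit genes under 750 bases and 0.65 for all 308 protein-coding genes of that length. Cox6a2 had the smallest p (log2 fold change 6.42, SE 1.26, edgeR adjusted p = 0.0855), followed by Cox7a1 (1.94, adjusted p = 0.265) and Cox6b2 (1.38, adjusted p = 0.373). With lower values, Ndufs1 was at 97.6, 108, 90.3 and 49.4 CPM in double mutants (log2 fold change -0.46, edgeR adjusted p = 0.569) and Sdha at 263, 286, 365 and 293 CPM (-0.41, adjusted p = 0.607), and both overlapped with WT.

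The third comparison, of double mutants with Jab1 mutants, asked whether loss of p21CIP1 changes these mRNAs in Jab1-mutant cells. edgeR called 0 subunit genes higher or lower, and 0% of all 17716 genes in either direction. DESeq2 and limma-voom called 0 subunit genes as well, where DESeq2 called 0.113% of all genes higher and 0.378% lower and limma-voom 0% and 0.00564%. At an unadjusted p below 0.05 there were 0 subunit genes higher (against 1.75% of all genes) and 0 lower (against 3.25%), and the groups overlapped for all 81, where 1.22% of all genes were higher and 1.99% lower without overlap. The median log2 fold change was 0.13, with 63 of 81 above 0. Leaving out 1 double mutant library at a time gave 0.32 for replicate 2, 0 for replicate 5 and 0.02 for replicate 3. The smallest p was that of Sdhc, a membrane anchor of complex II, at 46.0, 61.6, 46.7 and 55.0 CPM in Jab1 mutants and 59.7, 63.7, 94.4 and 94.3 CPM in double mutants (log2 fold change 0.58, SE 0.29, edgeR adjusted p = 0.98). All 4 genes of complex II were above 0, at 0.21 to 0.58, and Sdha was at 0.37 with a 95% interval from -0.22 to 0.96. Ndufa9 and Uqcrc1 followed at 0.59 and 0.48, and the genes with the smallest p among lower values, Atp5mpl, Atp5j2 and Cox6b2, were at -0.24, -0.23 and -0.40 (edgeR adjusted p = 0.996 to 1). For 61 of 81 genes the 95% interval stayed below a doubling, and for 75 above a fall of that size.

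Other genes of the organelle did not follow 1 direction. The 13 subunits encoded by mitochondrial DNA were all above 0 in Jab1 mutants, with a median of 1.27. Of these 13, 3 were called higher, where 5.19% of all genes were. All 13 were below 0 in double mutants against Jab1 mutants, with a median of -0.75 and 0 called, as 0% of all genes were. At an unadjusted p below 0.05 (edgeR) 0 of them were lower, where 3.25% of all genes were. Reads on them numbered 1.15 to 1.61 times those on the 81 nuclear genes in WT, 1.31 to 4.40 times in Jab1 mutants and 1.06 to 1.53 times in double mutants. Of the other lists none had a gene called in any of the 3 comparisons (edgeR), and those tested at an unadjusted p below 0.05 between Jab1 mutants and WT are given with their counts. Over all genes 13.2% were higher and 9.3% lower at that level. Genes given with values were picked by the smallest p in their list. Among 47 assembly factors, which help to build the complexes, the median was 0.05, with 1 higher and 2 lower (Foxred1 at -1.05 and Acad9 at -1.24, both factors for complex I). Among 19 genes of the TCA cycle and pyruvate dehydrogenase it was -0.14, with 1 higher (Suclg2, 1.01) and 2 lower, including Cs, the gene for citrate synthase (-0.87, edgeR adjusted p = 0.0976). Among 77 proteins of the mitochondrial ribosome it was 0.20, with 3 higher, including Mrpl38 (0.60), and 1 lower (Mrpl48, -1.01). Among 17 genes for electron carriers it was -0.14, with Coq8a at -1.75 and Coq8b at -0.61, and among 22 proteins of the outer and inner membrane -0.08, with Mfn1 at -0.62 and Timm44 at 0.56. Both lists had 0 genes at an unadjusted p below 0.05. Among 18 regulators it was -0.21, with 1 lower, Ppargc1a, which encodes the coactivator PGC-1α. It was at 105, 107, 37.4 and 108 CPM in WT and 43.5, 26.4, 55.4 and 31.4 CPM in Jab1 mutants (log2 fold change -1.19, SE 0.39, edgeR adjusted p = 0.0892), with overlap through WT replicate 5, and Lrpprc followed at -0.65. A further list of 7 subunit genes was not chosen by the symbols, but includes Atp5mpl and Atp5md, which are also among the 81 genes. Its median was 0.88, with 3 higher at an unadjusted p below 0.05, Atp5md among them. Ndufa4l2 of that list had the smallest p, at 1.48 to 3.14 CPM in WT and 4.96 to 14.5 CPM in Jab1 mutants (2.21, edgeR adjusted p = 0.065).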

How the data were processed

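The study's methods and the labels state that libraries were made with SMART-Seq v4 from total RNA and sequenced on a NovaSeq. Reads were trimmed with Trimmomatic 0.32, aligned with STAR 2.5.3a to GRCm38 and assigned to GENCODE genes with featureCounts. The table deposited by the authors holds these raw read counts per gene, not normalized. Use of strand and handling of multiply mapped reads are not given in the sources used here. All columns were assigned to samples by their names.

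Genes that reached 1 CPM in 4 or more samples were compared between pairs of genotypes with edgeR 4.0.16 (R 4.3.3) by TMM scaling and the quasi-likelihood test, adjusted by Benjamini-Hochberg over all 17716 genes. DESeq2 1.42.0 and limma 3.58.1 (voom) were alternatives, and the scripts were tested on simulated data. Positions and transcript lengths come from GENCODE M21. CPM use TMM-scaled totals. Depth was 61485556 to 153495112 counts per sample. The members and lists were chosen with earlier results of these data known. Genes were named if called, if among the 3 smallest p in each direction, if highest per length in WT in their complex, or if listed as catalytic subunits or isoform pairs, and for each other list the 2 genes with the smallest p. One gene that this rule names is not reported here.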

Additional observations from a re-analysis of the deposited data

Results flagged for a closer look

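In 102 groups of 4 samples, 1 per genotype for each named gene and for the mean levels over all genes and over each complex, a sample was singled out where its gap to the nearest other sample took up most of the range of its group by Dixon's criterion, which chance meets in about 1 in 20 groups. This held for 5 groups, all through a low value in double mutant replicate 2 or WT replicate 3, the libraries with the smallest share of counts on these genes. On the log2(CPM + 1) scale, Cox4i1 was at 8.74 in double mutant replicate 2 and at 9.88 to 9.98 in the other double mutants. Cox6a1 was at 8.55 there against 9.56 to 9.61, and Cox7a2 at 6.94 against 8.09 to 8.32. Ndufa3 was at 6.91 in double mutant replicate 2 against 8.35 to 8.52, and at 6.44 in WT replicate 3 against 7.87 to 8.07 in the other WT samples. The cause was not tested.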

How the results depend on the processing

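Of Jab1 mutants against WT, the 1 gene called higher became 6 with DESeq2 and 0 without a filter on low counts (Cox6a2, adjusted p = 0.0538, edgeR). The count was also 0 with a replicate block, which draws on replicates 1 and 3 alone. Leaving out 1 library gave 0 to 1, with 0 without WT replicate 3, WT replicate 5 or Jab1 mutant replicate 4. Without Jab1 mutant replicate 1 the 1 gene was Cox7a1, and among genes averaging 10 CPM or more the called one was Cox6b2. DESeq2 called 1 gene lower. Of double mutants against WT, DESeq2 called 1 gene and a fit of all 12 samples 1 gene. The cause was not tested.

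Small differences changed sign. For Jab1 mutants against WT, Sdhb was at -0.05 without a filter, -0.15 with limma-voom and -0.09 with the length offset, and -0.15 to 0.20 with 1 library left out. Uqcrfs1 was at 0.04 at a mean of at least 10 CPM (-0.25 to 0.10 with 1 library left out), Atp5a1 at -0.08 without a filter and -0.03 with limma-voom (-0.07 to 0.11), Atp5b at -0.06 and -0.08 (-0.09 to 0.17), Ndufa3 at -0.17 with the length offset (-0.06 to 0.36), and Atp5g2 at -0.04 with limma-voom and -0.11 with the length offset (-0.08 to 0.33). Between double and Jab1 mutants, Cox6b2 ranged from -1.03 to 0.13, and the log2 ratios from -0.75 to 0.06 for Cox6b2/Cox6b1, -0.60 to 0.10 for Cox7a1/Cox7a2, -0.39 to 0.21 for Cox8b/Cox8a and -0.02 to 0.16 for Atp5g1/Atp5g3.

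With the replicate block, the medians over the subunit genes were 0.62, 0.92 and 0.01 in the 3 comparisons. A blocked fit draws only on numbers found in both genotypes, so the other samples do not inform the difference. These numbers were 1 and 3 in the first comparison, 1, 3 and 5 in the second and 1, 2 and 3 in the third. The deviations of samples with the same number correlated at -0.19 to 0.08. These few pairs gave no sign that the numbers pair the samples, but cannot exclude it. The length offset and the removal of WT replicate 3 together with double mutant replicate 2 were chosen after seeing the data, and the latter gave a median of 0.45 in double mutants against WT. Over all genes, DESeq2 called 1687 higher and 1002 lower in Jab1 mutants against WT, where edgeR called 919 and 435, and 663 and 199 in double mutants against WT, where edgeR called 31 and 3. Between double and Jab1 mutants it called 20 and 67, where edgeR called 0.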
